A study of Mus musculus with 11 samples.

Results

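Of the 638 genes in the authors' progression-specific signature, 6 that code for interferon-induced antiviral effectors are described here: the oligoadenylate synthetases Oas2 and Oas3, the synthetase-like Oasl2, the tetratricopeptide protein Ifit1, the guanylate-binding GTPase Gbp3 and the PYHIN protein Ifi209, which the table lists under its older symbol Pyhin1. The signature holds further antiviral genes, such as Xaf1, Parp12, Apobec3 and Gbp6, which are taken up below. The 6 were chosen by symbol, and every gene of the table had been selected by the authors on its change in these same arrays. Expression had been measured on Affymetrix mouse arrays in granulocyte-macrophage progenitors (GMPs), bone marrow precursors of neutrophils and monocytes, sorted as lineage-negative, Sca-1-, c-Kit+, CD34+, Fc receptor-high cells from independent pools of mice. There were 4 arrays of control mice, which are written MxCre–Ctnnb1(Ex3)fl/+ and so carry 1 excisable Ctnnb1 allele, 3 arrays of Irf8 KO mice, which per the series text carry the same floxed allele, and 4 arrays of Irf8 KO / b-cat(Ex3) mice, in which exon 3 of that allele had been excised so that beta-catenin, the transcriptional effector of the Wnt pathway, is no longer degraded. The dash in the control genotype can be read as a join or as a minus. Whether control and Irf8 KO mice carry MxCre is therefore not stated here, and excision of exon 3 was not checked in any group. Deletion of Irf8, a transcription factor of monocyte and dendritic cell fate, gives mice a disease like chronic myeloid leukaemia, and the study looked for genes tied to the turn to blast crisis that activated beta-catenin brings about. Poly(I:C), an RNA duplex that mimics viral RNA, had been injected into the mice of every group (400 µg each on days 0, 3 and 5), with harvest 10 to 14 days past the final dose. Age and sex are not given in the labels, GMPs with activated beta-catenin and intact Irf8 are not analysed here, and each array averages a pool of animals.

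Type I interferons signal through their receptor, the kinases Jak1 and Tyk2 and a transcription factor complex, which binds the interferon-stimulated response element (ISRE) in the promoters of target genes. Oligoadenylate synthetases sense double-stranded RNA and make the second messenger that switches on RNase L, Ifit1 binds viral RNA ends that lack the host's cap methylation, guanylate-binding proteins attack the vacuoles of intracellular microbes, and PYHIN proteins include DNA sensors. Poly(I:C) induces interferon, so that every group was exposed to an inducer of interferon. The Mx promoter, which drives the recombinase in mice that carry MxCre, is an interferon target as well.

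RefSeq promoter windows (build GRCm38.p6, from 250 bases before to 50 bases after the annotated start) were found for 5 of the 6 genes. They were searched on both strands for the ISRE core (GAAA, any 2 bases, GAAA), for the interferon-gamma-activated GAS element TTCNNNGAA and for the TCF site CTTTGAT, through which beta-catenin acts. The ISRE core was present in the windows of Oas3, Ifit1 and Gbp3, against 3.44% of all 32851 windows. Neither the GAS element, which 8.3% of all windows hold, nor the TCF site, which 3.73% hold, was matched in any window of the 5 genes. The ISRE core was also not matched in the windows of Oasl2 and Ifi209 or in the other of the 2 Gbp3 windows. The 250 bases before the start are printed for 3 genes with a match and, for comparison, for Ifi209, 5′ to 3′ on the gene's strand, with ISRE matches in capitals. In Gbp3 the capitals are 2 matches that overlap.
Oas3, chr5:120777660-120777909, minus strand: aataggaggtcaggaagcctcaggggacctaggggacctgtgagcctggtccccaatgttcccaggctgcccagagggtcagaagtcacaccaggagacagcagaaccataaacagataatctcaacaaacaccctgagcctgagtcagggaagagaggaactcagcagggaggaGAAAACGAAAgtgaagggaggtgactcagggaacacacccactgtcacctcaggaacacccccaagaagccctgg
Ifit1, chr19:34640639-34640888, plus strand: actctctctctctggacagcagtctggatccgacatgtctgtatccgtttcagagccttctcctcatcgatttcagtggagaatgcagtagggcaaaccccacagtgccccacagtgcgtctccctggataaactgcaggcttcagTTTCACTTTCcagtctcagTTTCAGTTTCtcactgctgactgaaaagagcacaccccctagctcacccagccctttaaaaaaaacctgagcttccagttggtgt
Gbp3, chr3:142559794-142560043, plus strand: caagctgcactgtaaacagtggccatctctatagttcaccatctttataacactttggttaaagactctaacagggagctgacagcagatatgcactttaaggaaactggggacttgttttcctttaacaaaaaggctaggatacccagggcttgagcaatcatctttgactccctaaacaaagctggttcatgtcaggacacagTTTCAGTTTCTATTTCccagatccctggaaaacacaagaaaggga
Ifi209, chr1:173630609-173630858, plus strand: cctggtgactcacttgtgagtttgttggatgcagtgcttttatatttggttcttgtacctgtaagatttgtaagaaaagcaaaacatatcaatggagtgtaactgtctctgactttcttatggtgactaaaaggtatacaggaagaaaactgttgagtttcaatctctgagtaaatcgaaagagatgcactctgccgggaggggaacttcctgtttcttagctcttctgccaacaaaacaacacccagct
In the Irf8 KO / b-cat(Ex3) arrays the level was higher for Oas3 and Ifit1 and lower for Gbp3, the genes with an ISRE core. The higher Oasl2 and the lower Ifi209 had none, and no window was found for the higher Oas2. Whether the element bears on the direction of change was not tested.

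The deposited value table holds log2 expression for 45037 probe sets without gene names. The deposited fold changes were therefore set against the differences between group means. For all 638 genes the authors' log2 fold change equalled, within 0.0005, the Irf8 KO / b-cat(Ex3) minus control difference of at least 1 probe set, against 375 genes for Irf8 KO minus control and 216 for Irf8 KO / b-cat(Ex3) minus Irf8 KO. The signature therefore compares Irf8 KO / b-cat(Ex3) with control GMPs, and a positive sign means higher in Irf8 KO / b-cat(Ex3). For Oas2, Oas3, Oasl2, Ifit1 and Ifi209 exactly 1 probe set had the deposited value, and it stands for the gene below. For Gbp3, 5 probe sets had it. The one used had a p of 0.000119, 0.341 times the deposited p, while the p of the other 4 was 22.6 to 425 times the deposited one, against at most 15.1 times among the 197 genes with a single equal probe set. The choice itself rested on a limit of 0.00593 on the p of the fit, a rule made after seeing the data. Of the other 4 candidates for Gbp3, the nearest had a p of 0.00785. A limit above that p would have left Gbp3 without a single probe set. By the same rule 251 genes of the signature were linked to 1 probe set each. No other probe set of the 6 genes is named here, and oligoadenylate synthetases resemble each other in sequence, so cross-hybridisation between them was not tested.

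Array medians lay between 3.92 and 4.095 on the log2 scale. No detection calls were used here, so control levels near those medians may not be above background. The mean correlation of an array with the others of its group was 0.984 to 0.991 in controls, 0.9895 to 0.9899 in Irf8 KO and 0.979 to 0.987 in Irf8 KO / b-cat(Ex3) arrays. Irf8 itself had log2 levels of 9.38, 9.46, 9.78 and 9.23 in the controls, 8.60, 7.90 and 8.89 in Irf8 KO and 8.35, 8.63, 7.51 and 7.77 in Irf8 KO / b-cat(Ex3) arrays. Both groups labelled as knockouts lay below all controls, but signal remained, and the position of the probes relative to the deletion is not known. In the following, limma was fitted to all 11 arrays and all probe sets, with Benjamini-Hochberg adjustment and a call at an adjusted p under 0.05. The Irf8 KO / b-cat(Ex3) against control comparison gave the deposited fold changes and is given only as a description. The other comparisons share arrays with it, so their p-values are not independent of the choice of genes. The test behind the deposited p-values is not known, nor whether the signature was also filtered on another comparison. If it was, the p-values of the other steps are part of that choice too.

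Oas3 was highest in the Irf8 KO / b-cat(Ex3) GMPs, and most of its difference from control lay in the step from Irf8 KO. Its log2 levels were 3.55, 3.88, 3.98 and 4.11 in the controls, 4.47, 4.06 and 4.55 in Irf8 KO, and 6.73, 6.52, 6.77 and 8.02 in Irf8 KO / b-cat(Ex3) arrays. The first 2 groups overlapped, and every Irf8 KO / b-cat(Ex3) array lay above both. Between Irf8 KO and Irf8 KO / b-cat(Ex3), Oas3 rose by 2.65 on the log2 scale (SE 0.299, 6.28-fold, limma adjusted p = 0.03), the largest positive difference of all 45037 probe sets in that comparison. Between control and Irf8 KO the difference was 0.48 (95% interval -0.17 to 1.13, limma adjusted p = 0.565). The call in the first of these was lost when only those 2 groups entered the fit (limma adjusted p = 0.383) and in 9 of the 11 fits that left out 1 array, while the difference stayed between 2.31 and 2.81 in the latter.

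Oas2, the neighbour of Oas3 on chromosome 5 with 0 protein-coding genes between them, was also highest in the Irf8 KO / b-cat(Ex3) arrays. Its log2 levels were 5.20, 5.02, 4.84 and 5.04 in controls, 5.44, 5.57 and 6.19 in Irf8 KO, and 7.01, 6.41, 6.29 and 8.29 in Irf8 KO / b-cat(Ex3) arrays. The 3 groups did not overlap and followed each other in this order, though the highest Irf8 KO array and the lowest Irf8 KO / b-cat(Ex3) array lay close together. The difference was 0.71 from control to Irf8 KO (95% interval -0.13 to 1.55, limma adjusted p = 0.489) and 1.27 from Irf8 KO to Irf8 KO / b-cat(Ex3) (95% interval 0.43 to 2.10, limma adjusted p = 0.528), and neither passed over all probe sets.

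Oasl2, a synthetase-like protein that in the mouse carries ubiquitin-like domains, had log2 levels of 2.99, 3.71, 3.43 and 4.53 in the controls, 5.06, 4.41 and 4.69 in Irf8 KO, and 6.05, 6.33, 5.60 and 7.36 in Irf8 KO / b-cat(Ex3) arrays. Control replicate 4 lay above the lowest Irf8 KO array, and the Irf8 KO / b-cat(Ex3) arrays lay above all others. The 2 steps were 1.05 (95% interval 0.18 to 1.92, limma adjusted p = 0.272) and 1.61 (95% interval 0.75 to 2.48, limma adjusted p = 0.458).

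Ifit1 followed the same course with the widest spread of the 6 genes in the last group. Its log2 levels were 3.58, 3.80, 3.27 and 3.40 in controls, 4.79, 4.59 and 4.47 in Irf8 KO, and 5.67, 6.23, 5.26 and 8.05 in Irf8 KO / b-cat(Ex3) arrays. The 3 groups did not overlap, and the SD was 0.23 in controls (n = 4), 0.16 in Irf8 KO (n = 3) and 1.23 in Irf8 KO / b-cat(Ex3) arrays (n = 4). The steps were 1.11 (95% interval 0.05 to 2.17, limma adjusted p = 0.362) and 1.68 (95% interval 0.62 to 2.75, limma adjusted p = 0.509).

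**Figure D1:**
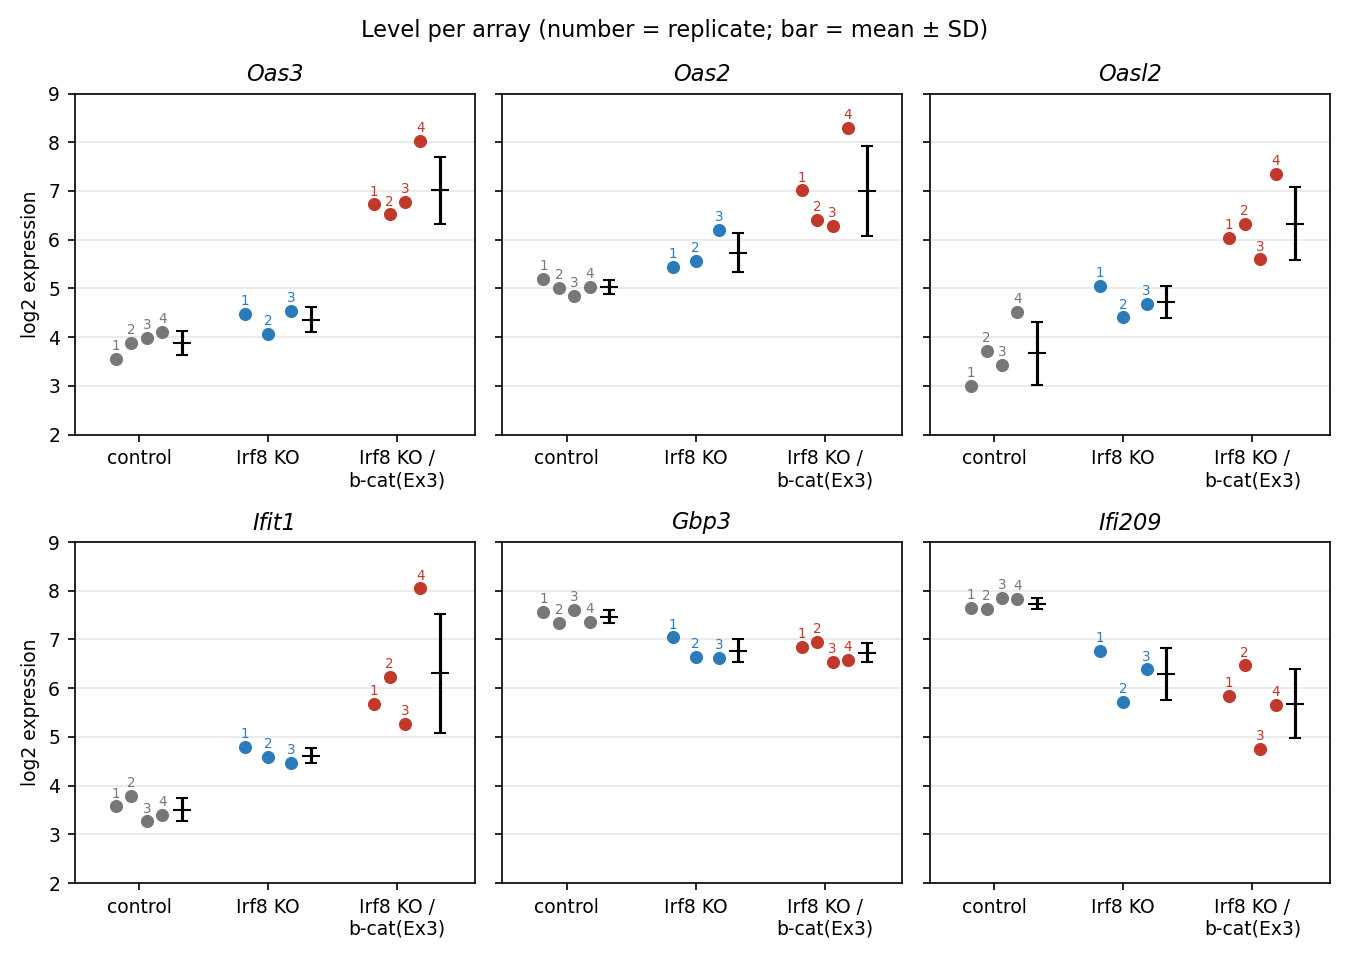
Log2 expression of the 6 genes on each array, in 1 panel per gene with the 3 groups on the x axis; points are arrays numbered by replicate, and the bars beside them are the group mean and SD. Oas3, Oas2, Oasl2 and Ifit1 are highest in Irf8 KO / b-cat(Ex3) replicate 4 (7.36 to 8.29), and Gbp3 and Ifi209 are highest in the controls.

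Gbp3 and Ifi209 ran the other way, and lay below the controls already in Irf8 KO. Gbp3 had log2 levels of 7.57, 7.34, 7.60 and 7.37 in controls, 7.04, 6.64 and 6.62 in Irf8 KO, and 6.85, 6.95, 6.54 and 6.58 in Irf8 KO / b-cat(Ex3) arrays. Both knockout groups lay below every control array and overlapped each other. Gbp3 fell by 0.70 on the log2 scale from control to Irf8 KO (95% interval of the difference -1.01 to -0.39, 1.63-fold, limma adjusted p = 0.0283). The further difference to Irf8 KO / b-cat(Ex3) was -0.04 (95% interval -0.35 to 0.27, limma adjusted p = 0.97). The call was lost in 5 of the 11 fits without 1 array (those without control replicate 1, 2 or 3 or Irf8 KO replicate 2 or 3), in which the difference was -0.74 to -0.63.

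Ifi209 had log2 levels of 7.64, 7.63, 7.85 and 7.83 in the controls, 6.77, 5.71 and 6.39 in Irf8 KO, and 5.84, 6.47, 4.75 and 5.66 in Irf8 KO / b-cat(Ex3) arrays. The controls were tight (SD 0.118, n = 4) and lay above all knockout arrays, which overlapped each other. From control to Irf8 KO the difference was -1.45 (95% interval -2.17 to -0.72, 2.72-fold), just short of the threshold (limma adjusted p = 0.0524). It passed in 8 of 19 alternative fits, among them those with quantile normalization, with only the 2 groups compared and without Irf8 KO / b-cat(Ex3) replicate 2 or 3 (limma adjusted p = 0.00549 to 0.199 over all of the alternatives). From Irf8 KO to Irf8 KO / b-cat(Ex3) it was -0.61 (95% interval -1.33 to 0.12, limma adjusted p = 0.76), but -0.30 without Irf8 KO / b-cat(Ex3) replicate 3 and -0.37 without Irf8 KO replicate 1.

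**Figure D2:**
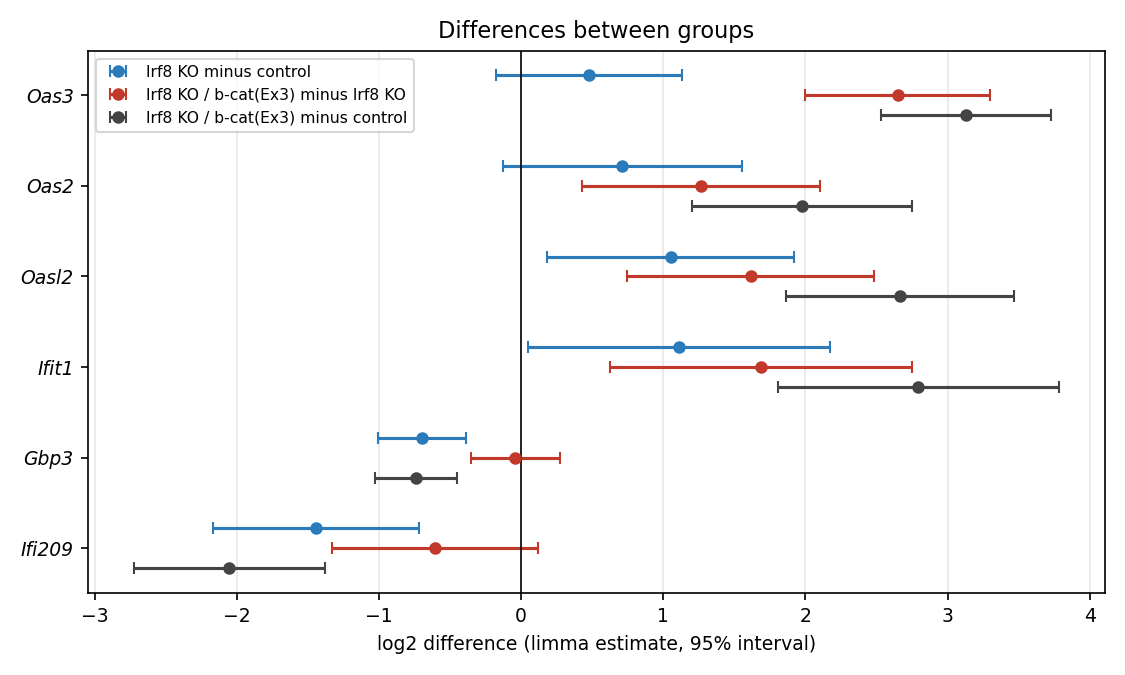
Log2 differences of the 6 genes in the 3 comparisons, with limma's 95% intervals. For Oas3 the step from Irf8 KO to Irf8 KO / b-cat(Ex3) is 2.65 against 0.48 for the step before it, and for Gbp3 it is -0.04 against -0.70.

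Described over the whole course, from control to Irf8 KO / b-cat(Ex3), the log2 differences were 3.13 for Oas3, 2.79 for Ifit1, 2.67 for Oasl2, 1.98 for Oas2, -0.74 for Gbp3 and -2.05 for Ifi209. All 6 had an adjusted p under 0.05 in this comparison, from which the deposited fold changes came. The genes and their probe sets had been chosen on it, so that this was largely set in advance and is no result about them. Of all probe sets 6.13% passed (2761, of which 1535 were higher and 1226 lower, and with each array centred on its median 1850 higher and 882 lower). In the authors' deposited table, whose smallest absolute log2 fold change was 0.586 and largest p 0.0016, of the 6 genes Gbp3 came nearest to the limit of fold and Ifit1, with p = 0.00112 in that table, nearest to that of p.

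In the comparisons other than the one behind the deposited fold changes, few of the 6 genes were called. From control to Irf8 KO, 1 of the 6 passed, Gbp3, against 1.75% of all probe sets, and from Irf8 KO to Irf8 KO / b-cat(Ex3) 1 passed, Oas3, against 0.00444% (2 of 45037 probe sets). At an unadjusted p under 0.05, 4 of the 6 genes were higher in Irf8 KO / b-cat(Ex3) than in Irf8 KO, against 3.88% of all probe sets, and the same 4 did not overlap between these groups, against 3.67%. From control to Irf8 KO, 2 genes were higher at that limit (Oasl2 and Ifit1), against 6.7%, and 2 were lower (Gbp3 and Ifi209), against 6.22%. These shares of all probe sets stand beside genes already known to differ over the whole course, so they describe at which step the genes differed and no more.

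The part of the whole difference that was already present in Irf8 KO was 15.3% for Oas3, 35.95% for Oas2, 39.4% for Oasl2 and 39.7% for Ifit1, but 70.4% for Ifi209 and 94.6% for Gbp3. Among the 156 linked genes with a positive fold change the median was 63.0% (quartiles 46.3 to 74.2%), and the 4 higher genes lay below its lower quartile. The linked genes are only a part of the 394 positive and 244 negative genes of the signature. Genes with a small fold change more often had several equal probe sets and so were left out. Over 16 alternative settings, a check added after seeing the data, each set against the quartile of its own setting, Oas3 lay below it in 16 and Oas2, Oasl2 and Ifit1 in 15 each. The exceptions were Oas2 without Irf8 KO replicate 1 (43.5% against a quartile of 41.3%), Oasl2 without Irf8 KO replicate 2 (45.3% against 44.6%) and Ifit1 without Irf8 KO / b-cat(Ex3) replicate 4 (50.1% against 47.9%). The control means of Oas3, Oasl2 and Ifit1 lie below the array medians and may not be above background, so that their shares may be understated. Among the 95 linked genes with a negative fold change the median share was 69.4% (quartiles 49.7 to 79.7%), with Ifi209 near the median and Gbp3 above the upper quartile. Over the same settings Ifi209 ranged over 56.3 to 82.9%, the highest without Irf8 KO / b-cat(Ex3) replicate 3, and Gbp3 over 84.8 to 113%, the lowest without Irf8 KO replicate 3, where the quartile was 87.5%. Because both steps share the Irf8 KO arrays, the values are set side by side without a test.

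**Figure D3:**
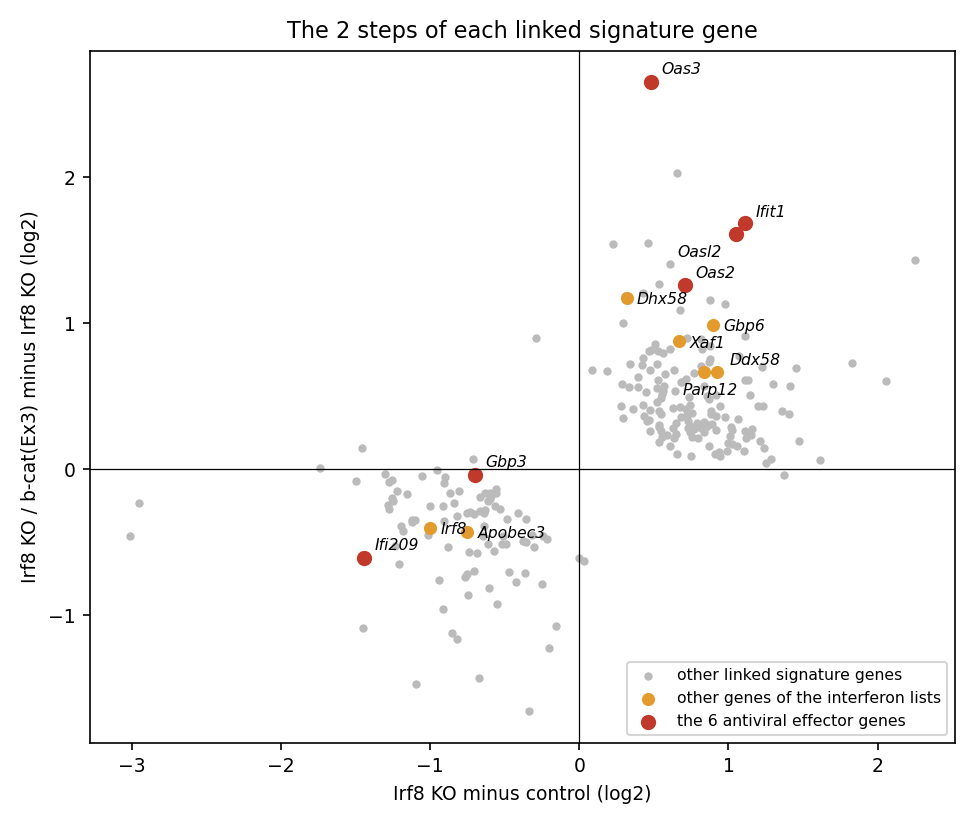
The difference from control to Irf8 KO (x axis) and from Irf8 KO to Irf8 KO / b-cat(Ex3) (y axis), both log2, for the 251 signature genes linked to 1 probe set. Oas3 (0.48, 2.65) has the largest second step, Ifit1 (1.11, 1.68), Oasl2 (1.05, 1.61) and Oas2 (0.71, 1.27) lie lower, and Gbp3 (-0.70, -0.04) lies on the zero line of the second step.

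Among the Irf8 KO / b-cat(Ex3) pools, replicate 4 was highest for each of the 4 higher genes. It lay above its group mean by 1.01 for Oas3, 1.29 for Oas2, 1.02 for Oasl2 and 1.75 for Ifit1, and replicate 3 lay below it by 0.24 to 1.04. Replicate 4 was not peculiar to these genes, since it was the highest of the 4 arrays for 84 of the 156 linked genes with a positive fold change (53.8%). Without it, the difference from Irf8 KO to Irf8 KO / b-cat(Ex3) was 2.31 for Oas3 (limma adjusted p = 0.00159), 0.84 for Oas2, 1.27 for Oasl2 and 1.10 for Ifit1, so Oas2 and Ifit1 were moved by over 1.5 times, and neither of them was called with or without it. Ifi209 and Gbp3 had another ranking, with replicate 2 highest and replicate 3 lowest.

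**Figure D4:**
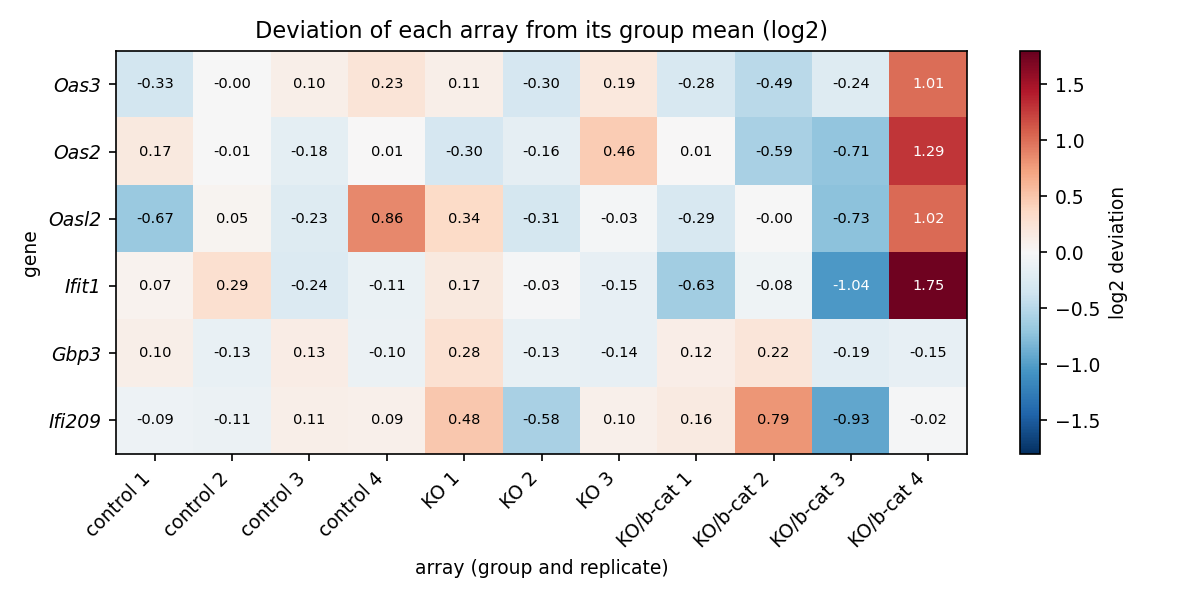
Deviation of each array from the mean of its group (log2, colour and number) for the 6 genes (rows) on the 11 arrays (columns). Irf8 KO / b-cat(Ex3) replicate 4 is above its group in the upper 4 genes (1.01 to 1.75) and slightly below it in Gbp3 (-0.15) and Ifi209 (-0.02).

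The genes alike in course were found by Pearson's r over the 11 arrays among the 250 other linked genes, a description that the group differences shared by all signature genes raise. Nearest to Oas3 was Dhx58, a cytosolic RNA sensor of the RIG-I family (r = 0.96), and Oasl2 was also among its nearest (0.937). Nearest to Oas2 were Ifit1 (0.949), the RNA sensor RIG-I, encoded by Ddx58 (0.929), and Oas3 (0.919). For Oasl2 they were Xaf1, a pro-apoptotic interferon target (0.978), Slfn5 (0.976) and Gbp6 (0.972), and for Ifit1 they were Gbp6 (0.953), Oas2 (0.949) and the interferon-induced Parp12 (0.942). After each group's mean was taken off, Oasl2 still had r = 0.95 with Xaf1 and 0.97 with Slfn5. The other pairs named in this paragraph were then lower, from 0.571 for Gbp3 with Pkib to 0.855 for Oasl2 with Gbp6. Ifi209 had r = 0.958 with Irf8 itself, 0.954 with the survival factor Bcl2 and 0.947 with the adhesion adaptor Lpxn, and Gbp3 had 0.929 each with Ifi209, Pkib and the transcription factor Mef2c.

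Other genes of the interferon pathway were taken from 9 lists, of receptors and signalling, interferon regulatory factors, nucleic acid sensors, antiviral effectors, the OAS, IFIT, GBP and PYHIN families and the interferons. Of the 122 listed genes other than the 6, 8 were in the signature, 6 with a positive and 2 with a negative fold change, and their median log2 fold change was 1.496, against 0.68 over all 638. Of those 638, 394 were positive. With probe sets unnamed, the share of all genes on the arrays that entered the signature is not known. The count is therefore no measure of an excess of interferon genes. None of the 11 interferon genes was in the signature. The remaining genes of these lists have no named probe set here, so nothing is said of their level. In the OAS family list Oas2, Oas3 and Oasl2 made up 3 of 13, in the IFIT list Ifit1 was 1 of 6, in the GBP list Gbp3 and Gbp6 were 2 of 11, and in the PYHIN list Ifi209 was 1 of 16.

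Irf8 aside, 6 of these genes were linked to a probe set, and 5 of them, Ddx58, Dhx58, Gbp6, Xaf1 and Parp12, had positive differences in both steps. From Irf8 KO to Irf8 KO / b-cat(Ex3) the difference was 1.17 for Dhx58 (limma adjusted p = 0.395), 0.99 for Gbp6, 0.88 for Xaf1 and 0.67 for both Ddx58 and Parp12, and 0 of the 6 passed. All 6 had an unadjusted p under 0.05 in it, 5 of them higher and Apobec3 lower, against 7.07% of all probe sets. They are named only as genes of the signature, whose comparison shares the Irf8 KO / b-cat(Ex3) arrays with this step. The share therefore describes at which step they differed and no more. Dhx58, with 0.32 in the step before (limma adjusted p = 0.656), had the course of Oas3. Its log2 levels were 4.47, 4.60, 4.77 and 4.89 in controls, 5.23, 4.55 and 5.21 in Irf8 KO and 6.18, 6.15, 5.60 and 6.74 in Irf8 KO / b-cat(Ex3) arrays. Gbp6, of the same family as Gbp3 but of the opposite sign, was at 2.39, 2.65, 2.43 and 2.86 in controls, 3.86, 3.17 and 3.39 in Irf8 KO and 3.90, 4.62, 4.17 and 5.15 in Irf8 KO / b-cat(Ex3) arrays.

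Apobec3, a cytidine deaminase that restricts retroviruses, was like Gbp3 lower in Irf8 KO than in control. It fell by 0.75 from control to Irf8 KO (95% interval of the difference -1.06 to -0.44, limma adjusted p = 0.0209), with log2 levels of 10.38, 10.31, 10.30 and 10.36 in controls and 9.33, 9.62 and 9.80 in Irf8 KO arrays. In Irf8 KO / b-cat(Ex3) arrays it was at 9.26, 9.05, 8.88 and 9.44 (difference to Irf8 KO -0.43, 95% interval -0.74 to -0.12, limma adjusted p = 0.588), whereas the same step of Gbp3 was -0.04.

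Some markers of other blood cells were in the signature as well, and were thus chosen on their change. Listed markers outside it have no named probe set here, so nothing is said of their level. For the same reason no share of all genes can be set beside the count that follows. Of the 63 markers on 8 lists, 9 were in the signature, 5 positive (Cd177, Csf3r, Cd14, Fcgr4 and Adgre1) and 4 negative (Car1, Gata1, Mcpt8 and Tcf4). The defining GMP markers, the lymphoid and the stem cell markers were not among them, so the cell type label could not be checked on named probe sets. Cd177, on neutrophils, ranged over 3.73 to 6.82 in controls, 6.32 to 7.54 in Irf8 KO and 7.35 to 9.57 in Irf8 KO / b-cat(Ex3) arrays. Control replicate 4 and Irf8 KO / b-cat(Ex3) replicate 4 were the highest of their groups, as they were for Oasl2. The same held for Oas3, Gbp6, Ddx58, Xaf1, Parp12 and Dhx58, but not for Oas2 and Ifit1, whose highest control was another. Control replicate 4 was also the highest control for the erythroid Car1. Irf8 KO / b-cat(Ex3) replicate 3 was next highest of its group for Cd177 (8.76) but lowest for Oasl2 (5.60). Replicate 4 of that group was also the highest for 53.8% of the linked genes with a positive fold change. The erythroid Car1 ranged over 5.07 to 6.89, 2.71 to 3.32 and 2.58 to 2.89, and the erythroid regulator Gata1 over 4.71 to 4.93, 3.39 to 3.66 and 3.14 to 3.72, in the same order of groups. Both were lower than control in Irf8 KO already, as were Gbp3 and Ifi209. Cd14, on monocytes, ranged over 4.00 to 5.55, 5.49 to 6.46 and 5.81 to 7.65, with Irf8 KO / b-cat(Ex3) replicate 3 the highest. Tcf4, a regulator of plasmacytoid dendritic cells, ranged over 6.33 to 6.62, 6.25 to 6.77 and 5.71 to 6.18. Its Irf8 KO / b-cat(Ex3) arrays lay below all others (difference to Irf8 KO -0.61, 95% interval -0.93 to -0.29, limma adjusted p = 0.427), the step in which Oas3 rose. The part of these markers in the results was not tested. In sorted cells measured in bulk, fewer cells of a type and less RNA per cell cannot be told apart.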

How the data were processed

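The authors deposited log2 expression values per probe set for each of the 11 arrays and a signature table that holds, for each gene, the log2 fold change, its p-value and a signed fold score, per the file headers. Normalization, test and array software: not given in the sources used here. RNA preparation, per the labels' protocols, was by column extraction and cDNA amplification from very small inputs. Values were used as deposited. Groups came from the sample titles. Arrays are labelled as biological replicates, and pools as independent in the series text.

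limma 3.58.1 (R 4.3.3: lmFit, contrasts.fit, eBayes) was fitted to the 3 groups without covariates, and p-values were adjusted by Benjamini-Hochberg over 45037 probe sets. With no table of probe annotation used here, signature genes were linked to the probe sets whose Irf8 KO / b-cat(Ex3) minus control difference equalled the deposited log2 fold change within 0.0005 and whose p in the fit was at most 0.00593, that is 1.5 times the largest (0.00396) among the 197 genes with 1 equal probe set, a rule made after seeing the data. Of the 638 genes, 621 matched RefSeq of GRCm38.p6 by Entrez identifier. The rule for named genes took the 6 genes, the targeted genes Irf8 and Ctnnb1, for each of the 6 the 3 genes of highest Pearson's r, and listed genes past the threshold, each by its annotated probe set of highest mean. For want of annotation the linked probe set was used instead, Ctnnb1 was left out, likeness was searched among linked genes, and every listed interferon gene with a linked probe set was named, below the threshold too, a change made after the values were seen. One of the genes most alike to Oas3 is not reported here. Members and lists were chosen with earlier results of these data known. The fits were tested on simulated data. The linking was tested on differences of the real fit, rounded as deposited, so that the true probe set was a candidate by construction. That test did not cover deposited p-values that differ from those of the fit. Replicate numbers are shared between groups, but deviations of same-numbered arrays correlated at only -0.228 to 0.171, so they were not treated as pairs. The number of arrays limits the precision. Settings for 1 probe set per gene or their mean, and another log offset, were not run, for want of probe names and because the values already were log2.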

Additional observations from a re-analysis of the deposited data

Results flagged for a closer look

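Oas3 in Irf8 KO / b-cat(Ex3) replicate 4, at 8.02 on the log2 scale, lay far above the other 3 arrays of its group, at 6.52 to 6.77. Its gap to the nearest of them was 0.831 of the range of the group, just over Dixon's 95% critical value for 4 samples. This was 1 of 12 groups of 4 arrays examined over the 6 genes, each on both sides, and chance marks about 1 group in 20 (5%). Without that array the difference from Irf8 KO was 2.31, with a smaller adjusted p (limma, 0.00159).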

How the results depend on the processing

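Over all probe sets, calls from Irf8 KO to Irf8 KO / b-cat(Ex3) numbered 2, with 0 when only the 2 groups compared were fitted, 5 without the 2 arrays of lowest correlation with their group (Irf8 KO / b-cat(Ex3) replicates 2 and 3, an alternative chosen after seeing the data) and 1 to 10 without 1 array. Without Irf8 KO / b-cat(Ex3) replicate 2 it was 10, and without any other single array 1 or 2. From control to Irf8 KO, 789 became 1658 with array weights and 347 to 1039 without 1 array, falling by over 1.5 times without control replicate 1, 2 or 3 or Irf8 KO replicate 1 or 2. From control to Irf8 KO / b-cat(Ex3), 2761 became 4395 with array weights and 1477 to 3673 without 1 array, falling as much without control replicate 1, 2 or 3. Among the fits without 1 array, the highest counts of these last 2 comparisons, 1039 and 3673, came without control replicate 4. The causes were not tested, and the fits without an array also rest on fewer arrays. With the replicate number as a block the counts were 2, 658 and 2443, and Oasl2 passed from control to Irf8 KO (1.37, limma adjusted p = 0.03 against 0.272). The Irf8 KO to Irf8 KO / b-cat(Ex3) difference of Gbp3, -0.04, changed sign at a size near 0: 0.000317 with arrays centred on the median, 0.00206 with the block, and -0.11 to 0.10 without 1 array. Oas3 kept its call there in 9 of 19 alternatives (limma adjusted p = 0.00159 to 0.383). Ifit1 passed from control to Irf8 KO in 2 of 19. Over the whole course all 6 genes kept their direction and an adjusted p under 0.05 in all 19. Because the genes and their probe sets were chosen on this same comparison, that is no separate support for it. Only Oas2 moved by more than its SD, to 2.63 without those 2 arrays.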
